A study of Rattus norvegicus with 21 samples.

Results

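Steroid hormones are made from cholesterol, and 10 rat genes of that route were followed through the arrays. These were the cholesterol delivery genes Scarb1 and Star, the side-chain cleavage genes Cyp11a1 and Fdx1, the later enzymes Cyp17a1, Cyp11b1, Cyp11b2, Cyp19a1 and Srd5a1, and the steroid-reducing enzyme gene Akr1c14. The genes were chosen by name, and each was read from the probe set that carries its symbol in the platform annotation. Of the 10 genes, 8 had such a probe set, 1 each, among 14506 gene symbols on the array. Cyp19a1, which encodes aromatase, and Srd5a1, which encodes a steroid 5α-reductase, were not listed there and were not analysed here.

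Adenomas came from MENX rats, homozygous for the mutant allele of p27Kip1 (Cdkn1b, spelled Cdknb1 in the labels), a germline loss-of-function mutation in the gene of the cell cycle inhibitor p27. Control tissue came from pituitaries of 5 wild-type rats, and both groups were on the Sprague–Dawley white eye/Wistar–Kyoto background. The 16 macrodissected lesions carried 9 sample numbers, read here as 9 rats, of which 6 were female and 3 male, aged 7 to 12 months. The 5 wild-type rats were 2 females and 3 males, all 6 months old, so that age and genotype cannot be told apart. Of the mutant rats, 4 gave 1 lesion, 3 gave 2 and 2 gave 3, and lesions of 1 rat share its germline, age and gland. The ages are those of the labels. They differ from the age in the study's text, so age slopes and age subsets rest on the labels. The lesions are held to be chiefly of gonadotroph origin, and 1 gland can carry several, whereas a normal pituitary holds all hormone-producing cell types. In such bulk tissue, fewer cells of a type and less RNA per cell cannot be told apart.

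In steroid-forming cells, cholesterol is taken up from high-density lipoprotein through the receptor SR-BI, encoded by Scarb1, and is carried to the inner mitochondrial membrane by the protein that Star encodes. There the enzyme P450scc, encoded by Cyp11a1, cleaves the side chain and yields pregnenolone, the precursor of all steroid hormones. It draws its electrons from ferredoxin 1, encoded by Fdx1, which is recharged by ferredoxin reductase, encoded by Fdxr. Enzymes further along, among them 3β-hydroxysteroid dehydrogenases, Cyp17a1, Cyp21a1 and the Cyp11b family, turn pregnenolone into progestins, androgens and corticosteroids. The route is a hallmark of the adrenal cortex and the gonads, where the nuclear receptor SF-1, encoded by Nr5a1, drives many of its genes, and SF-1 is also a lineage factor of pituitary gonadotrophs.

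All values below are log2 RMA values, array intensities after background correction and normalization by the authors. Medians of the 21 arrays lay between 6.36 and 6.53. Cdkn1b mRNA averaged 8.91 ± 0.19 in the 5 wild-type pituitaries and 9.23 ± 0.17 in the 9 mutant rats (mean ± SD). Of the 4 gonadotroph markers, Cga and Gnrhr were higher in adenomas and Lhb and Fshb lower. The paper reports that large lesions lose LHβ and FSHβ and keep the subunit that Cga encodes. Markers of somatotrophs (3 of 3), corticotrophs and melanotrophs (4 of 4), folliculostellate cells (4 of 5) and the posterior lobe (4 of 6) were lower. Among thyrotroph markers 1 of 3 was lower, and neither of the 2 lactotroph markers was called. Endothelial markers were higher for 3 of 8 genes. At the threshold given below, 9.06% of all probe sets were called lower and 8.49% higher. Macrophage markers were higher for 6 of 9 genes, with summed linear levels of 780 to 1237 in wild-type pituitaries and 1161 to 2235 in adenomas. The part of these shifts in the results below was not tested.

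One array stood apart. The lesion labelled 05, 1 of 3 lesions of rat 3, exceeded every other lesion by more than 1 log2 unit at 139 of the 15310 probe sets with 1 symbol. In the other 15 lesions such probe sets numbered from 0 to 9. Results that rest on this lesion are given with and without it.

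Of the 8 measured genes, 5 were up-regulated in adenomas at an adjusted p under 0.05 (limma over all 29214 probe sets, 9 rats against 5), namely Scarb1, Cyp11a1, Fdx1, Cyp11b1 and Akr1c14. Over all probe sets the share called higher was 8.49%. No measured gene was called lower, against 9.06% of all probe sets (2.16% had all rat means below all wild-type values), and none was lower at an unadjusted p under 0.05 (0 of 8). The median log2 fold change of the 8 genes was 1.22, beside -0.035 over all probe sets. Without lesion 05 the count of up-regulated genes was again 5. The study had itself named several of these genes from the same arrays, so their direction here is not independent evidence. Beyond the arrays, the paper reports raised Cyp11a1 by quantitative RT-PCR in additional adenomas and higher P450scc by immunofluorescence. It also reports raised Cyp11b1 and Cyp11b2 by quantitative RT-PCR in independent adenomas.

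**Figure D1:**
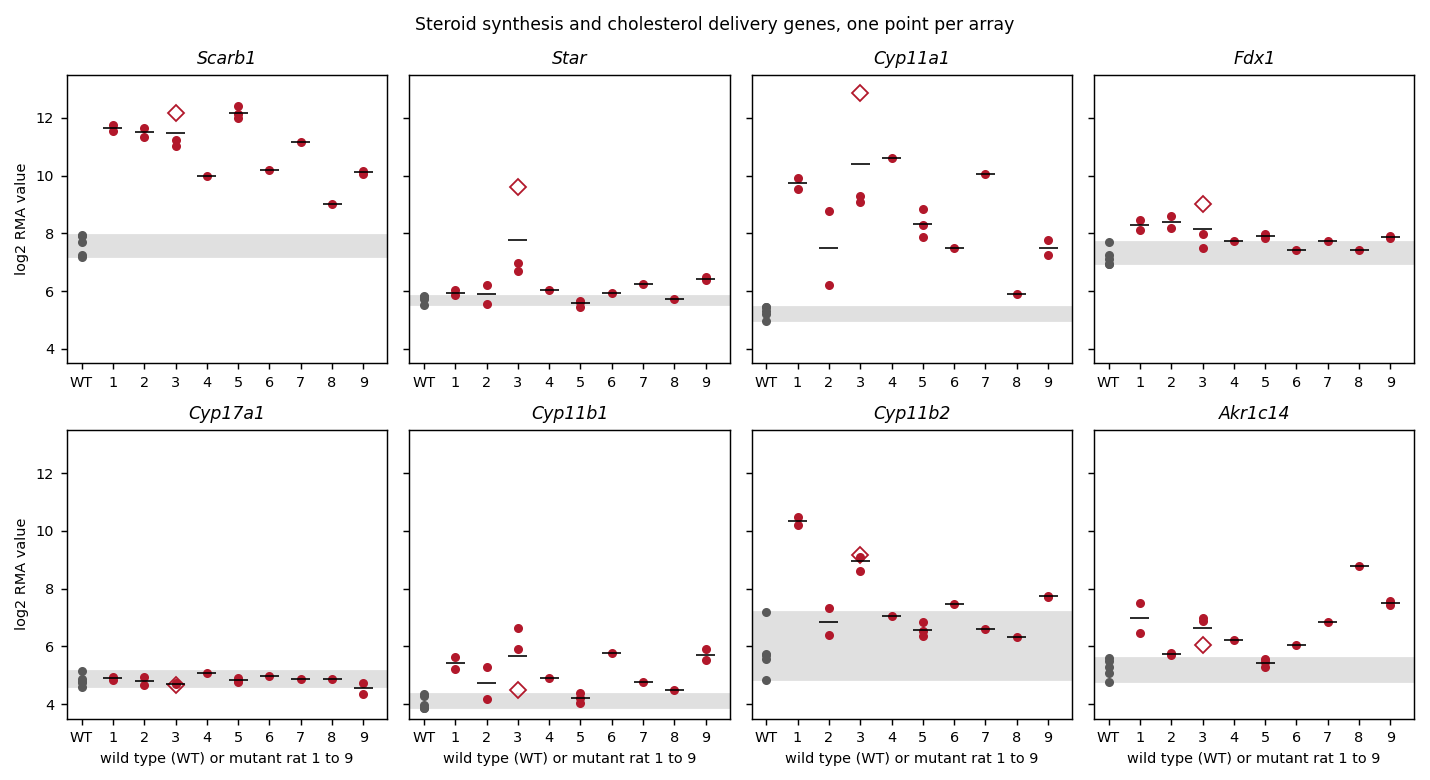
Log2 RMA values (y axis) of the 8 measured genes on each array, for wild-type pituitaries (WT, grey points, grey band for their range) and the lesions of mutant rats 1 to 9 (red points, bars for the mean of each rat, open diamond for lesion 05). All lesions lie above the band for Scarb1 and Cyp11a1, whereas Cyp17a1 stays within or near it.

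Scarb1, the gene of the lipoprotein receptor, rose in every lesion. Its values in wild-type pituitaries 1 to 5 were 7.24, 7.91, 7.95, 7.72 and 7.19. In adenomas the rat means ran from 9.02 in rat 8 over a median of 11.15 to 12.18 in rat 5. Every lesion lay above every wild-type value (16 of 16), and the groups did not overlap. Over all probe sets, 2.66% had all 9 rat means above all wild-type values. Adenomas exceeded wild-type pituitaries by 3.21 on this scale (standard error 0.43, 95% confidence interval 2.29 to 4.12), a 9.23-fold difference with an adjusted p of 0.000283. Scarb1 kept its call under every alternative run, with an adjusted p of at most 0.0177.

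Star, the gene of the mitochondrial cholesterol carrier, did not pass the test. Wild-type pituitaries were at 5.52, 5.78, 5.74, 5.82 and 5.78. Rat means ran from 5.58 to 7.76 with a median of 5.94, and 7 of the 9 lay above all wild-type values. The top value belonged to rat 3, where lesion 05 was at 9.62 and its sister lesions at 6.70 and 6.96. The difference was 0.44 (standard error 0.27, 95% confidence interval -0.13 to 1.01, adjusted p = 0.266), and without lesion 05 it was 0.34 (adjusted p = 0.163). The probe set was dim in both groups, with a mean above 36.3% of all probe sets in wild-type pituitaries and above 45.6% in adenomas. Such shares mark only how dim a probe set is, since the levels of different probe sets cannot be compared as amounts of RNA.

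Cyp11a1, the gene of the side-chain cleavage enzyme, was dim in wild-type pituitaries and varied widely among adenomas. The wild-type values were 5.46, 5.20, 4.97, 5.33 and 5.47, above 28.7% of all probe sets on average. Rat means ran from 5.89 in rat 8 over a median of 8.34 to 10.61 in rat 4. All 16 lesions exceeded all wild-type values, although the lesion of rat 8 did so by a small margin. The mean difference of 3.33 (standard error 0.67, 95% confidence interval 1.90 to 4.76, adjusted p = 0.00388) was 10.1-fold. It was 3.19 without lesion 05 (adjusted p = 0.00306). In adenomas the mean lay above 83.7% of all probe sets.

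The sample numbers begin with 08 or 09, a prefix whose meaning the labels do not give. Among samples of prefix 08 the Cyp11a1 log2 fold change was 3.99 (5 rats against 2, adjusted p = 0.0494), and among those of prefix 09 it was 2.48 (4 rats against 3, adjusted p = 0.0698). The rise of Scarb1 was called within either prefix, at 3.78 (adjusted p = 0.0177) and 2.50 (adjusted p = 0.0110). Fdx1 and Cyp11b1 lost their calls in each prefix alone, with log2 fold changes of 0.79 and 0.49 for Fdx1 and of 1.07 and 1.01 for Cyp11b1.

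Both partners that bring electrons to P450scc were measured. Fdx1 stood at 6.94, 7.69, 7.13, 6.95 and 7.27 in wild-type pituitaries. Its rat means ran from 7.41 to 8.39 with a median of 7.88, and those of rats 6 and 8 fell within the wild-type range. Adenomas were thus 1.61-fold higher, by 0.69 (standard error 0.17, adjusted p = 0.0142), and by 0.64 without lesion 05 (adjusted p = 0.0175). Fdxr was named only through the study's list of changed probe sets, which chose it for its rise. Its mean ± SD was 7.01 ± 0.30 over 5 wild-type pituitaries and 8.65 ± 0.36 over 9 mutant rats, with no overlap between the groups. Of all probe sets, 2.66% had all 9 rat means above all wild-type values. The microsomal partners behaved unequally. Cyb5a, which encodes cytochrome b5, was up-regulated (log2 fold change 0.90, adjusted p = 0.0487), a call lost without lesion 05 (0.89, adjusted p = 0.0521) and in 11 of the 14 versions that left out 1 rat (adjusted p from 0.0299 to 0.138). Por, which encodes the reductase that serves Cyp17a1 and Cyp21a1, was at -0.34 (adjusted p = 0.0586) and did not pass.

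**Figure D2:**
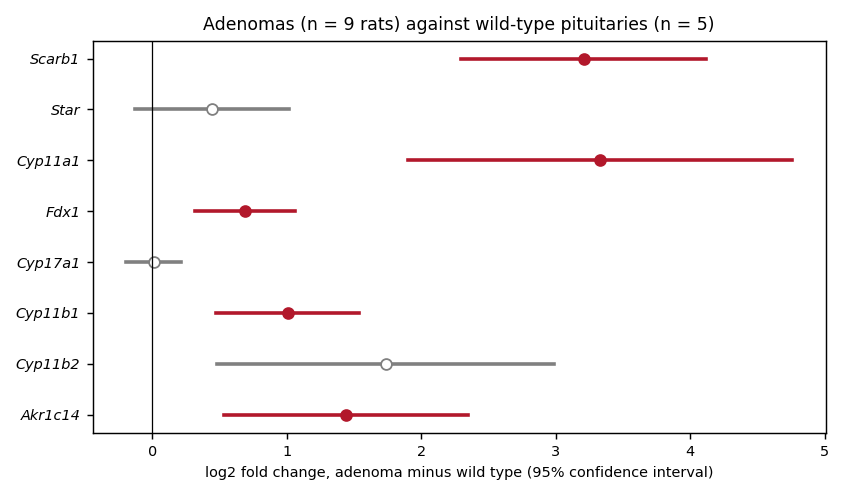
Log2 fold change of adenomas against wild-type pituitaries (x axis) for the 8 measured genes in the order of the route, as points with 95% confidence intervals for each gene alone. Filled red points passed an adjusted p of 0.05 over all probe sets, and open grey points (Star, Cyp17a1 and Cyp11b2) did not.

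The sequence before the starts of Cyp11a1, Fdx1 and Akr1c14 is shown. These genes, like Nr5a1, had higher means in adenomas, and they were in the RefSeq promoter table (assembly GRCr8). Whether they varied with Nr5a1 across rats was not tested. Each run holds the 250 bases before the annotated gene start, read 5′ to 3′ on the strand of the gene, with matches to AGGTCA or CAAGGNC, half-sites that NR5A receptors such as SF-1 can bind, in capitals. The positions are chr8:67318415-67318664 on the plus strand for Cyp11a1, chr8:61183646-61183895 on the minus strand for Fdx1 and chr17:71083185-71083434 on the minus strand for Akr1c14.
Cyp11a1: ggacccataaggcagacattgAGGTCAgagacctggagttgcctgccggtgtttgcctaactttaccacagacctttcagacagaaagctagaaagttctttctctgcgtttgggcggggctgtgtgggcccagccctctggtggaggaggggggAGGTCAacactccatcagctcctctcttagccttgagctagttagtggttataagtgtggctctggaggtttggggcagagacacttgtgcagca
Fdx1: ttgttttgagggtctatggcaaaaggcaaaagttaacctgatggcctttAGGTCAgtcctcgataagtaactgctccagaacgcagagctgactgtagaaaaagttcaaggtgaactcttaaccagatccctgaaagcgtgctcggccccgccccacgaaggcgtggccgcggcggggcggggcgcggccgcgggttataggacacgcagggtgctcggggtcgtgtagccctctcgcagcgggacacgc
Akr1c14: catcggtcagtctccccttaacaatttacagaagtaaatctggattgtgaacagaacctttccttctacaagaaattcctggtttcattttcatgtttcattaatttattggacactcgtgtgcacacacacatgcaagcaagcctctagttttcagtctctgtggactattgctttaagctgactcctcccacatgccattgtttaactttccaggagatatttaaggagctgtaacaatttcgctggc
Both strands were searched, and the motifs can overlap, since both share the core AGGNC. Cyp11a1 had 2 matches to AGGTCA, at bases 229 to 224 and 95 to 90 before the start, and Fdx1 had 1, at bases 201 to 196. In the Akr1c14 window neither motif was found. Of 33469 rat promoters of this length, 14.1% held AGGTCA, 15.8% held CAAGGNC and 26.7% held either, so a match is common.

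Most measured genes of the steps after pregnenolone did not pass the test. Cyp17a1, which encodes the enzyme that leads to androgens, averaged 4.83 ± 0.20 in 5 wild-type pituitaries and 4.84 ± 0.15 in 9 mutant rats (mean ± SD). Its wild-type values were 4.76, 4.85, 4.59, 5.14 and 4.78, and rat means ran from 4.55 to 5.07 with a median of 4.86. No rat lay above the wild-type range. Its difference had a 95% confidence interval of -0.20 to 0.21 (adjusted p = 0.957), and the probe set was dim, above 21.8% of all probe sets in wild-type pituitaries and 23.2% in adenomas. Hsd3b2, the gene of a 3β-hydroxysteroid dehydrogenase that turns pregnenolone into progesterone, was dim as well, with a log2 fold change of -0.29 (adjusted p = 0.106). Its family member Hsd3b5 was at -0.21 (adjusted p = 0.133). Cyp21a1, the gene of the 21-hydroxylase on the way to corticosteroids, averaged 4.44 ± 0.081 and 4.53 ± 0.13 in the same groups, a difference of 0.093 (adjusted p = 0.418). One further probe set carries the symbols of more than 1 Hsd3b gene and was left unnamed. Hsd3b1 and Hsd3b6 had no probe set of their own in the annotation. The 3β-hydroxysteroid dehydrogenase step was thus read only from Hsd3b2 and Hsd3b5.

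Outside the 10, 11 of 15 listed genes of steroid-forming enzymes were measured. Of these 2 were up-regulated and none was called lower, against 8.49% and 9.06% of all probe sets. The median difference of the 11 genes was -0.025. The 2 were Sts, which encodes steroid sulfatase (log2 fold change 0.44, adjusted p = 0.0131), and Cyp11b3, a paralog of Cyp11b1 (0.40, adjusted p = 0.0452). The call of Cyp11b3 was lost without lesion 05 (0.41, adjusted p = 0.0514) and in 11 of the 14 versions that left out 1 rat (adjusted p from 0.0174 to 0.0920).

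Cyp11b1 and Cyp11b2 encode the enzymes of the last steps to corticosterone and aldosterone. Cyp11b1 was at 3.88, 3.95, 4.29, 4.36 and 3.85 in wild-type pituitaries. Its rat means ran from 4.21 in rat 5 over a median of 4.89 to 5.77 in rat 6, and 8 of the 9 lay above all wild-type values. That rise of 1.01 (standard error 0.25, adjusted p = 0.0128) was 2.01-fold, and 1.07 without lesion 05. Even so the adenoma mean lay above only 26.7% of all probe sets, against 12.6% in wild-type pituitaries, so the change took place at the dim end of the scale.

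A second probe set was named Cyp11b1 in the study's list, and it did not follow the first. Its wild-type values were 5.02 and 5.02 in the samples of prefix 08 and 6.83, 6.25 and 6.99 in those of prefix 09. The overall log2 fold change was -0.80 (adjusted p = 0.0922), with -0.040 within prefix 08 (adjusted p = 0.917) and -1.17 within prefix 09 (adjusted p = 0.0132). Cyp11b1, Cyp11b3 and Cyp11b2 lie beside each other on rat chromosome 7 in the RefSeq annotation, together with Cyp11b2l1. Since the paralogs are alike in sequence, the gene behind each of these array signals is uncertain. By quantitative RT-PCR the paper reports a rise of Cyp11b1 and of Cyp11b2 in independent adenomas.

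Cyp11b2 varied in both groups. Wild-type pituitaries were at 4.84, 7.20, 5.57, 5.75 and 5.70, where the second pituitary stood well above the others. Rat means ran from 6.33 in rat 8 over a median of 7.06 to 10.34 in rat 1. In all, 4 of the 9 rats and 9 of the 16 lesions exceeded every wild-type value, so the groups overlapped. Its difference of 1.73 (standard error 0.59, adjusted p = 0.0539) did not pass. Without the second wild-type pituitary it was 2.08 (adjusted p = 0.0275), and with lesions in place of rat means and the rat as a random block 1.85 (adjusted p = 0.0190), both past the threshold.

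Akr1c14 encodes a 3α-hydroxysteroid dehydrogenase that reduces androgens and progestins to less active or neuroactive forms. Wild-type values were 5.60, 5.50, 5.27, 4.78 and 5.07. Rat means ran from 5.43 in rat 5 over a median of 6.64 to 8.79 in rat 8, and 8 of the 9 lay above all wild-type values. The rise of 1.44 (standard error 0.43, adjusted p = 0.0304) was 2.71-fold. Within prefix 08 the difference was 0.65 (adjusted p = 0.418) and within prefix 09 it was 2.25 (adjusted p = 0.0299). With adenomas of 7 or 8 months alone it was 0.89 (2 rats, adjusted p = 0.230). Its call was also lost without wild-type pituitary 3, 4 or 5 or without rat 1, with adjusted p from 0.0509 to 0.0874 and log2 fold changes from 1.32 to 1.45.

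The genes around the route gave a mixed picture. Of 15 genes of cholesterol supply and handling, 13 were measured and 6 were up-regulated, with none called lower. The shares over all probe sets were 8.49% higher and 9.06% lower. The median log2 fold change of the 13 was 0.32. Where a gene had several named probe sets, as Vdac1 had, only that with the highest mean over all arrays was used. The larger rises were those of Apoe, the gene of apolipoprotein E (1.43, adjusted p = 0.00886), Vdac1, the gene of a channel of the outer mitochondrial membrane (0.74, adjusted p = 0.0132), Abca1, the gene of a cholesterol exporter (0.68, adjusted p = 0.0289, lost in 4 of 14 versions without 1 rat), and Stard4, the gene of a soluble cholesterol carrier (0.55, adjusted p = 0.0134). Apoe and Abca1 are also expressed by macrophages, whose markers were higher in adenomas, and the part of such cells was not tested.

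Of 15 steroid-inactivating enzymes 12 were measured, and 1 rose and 1 fell, shares near those of all probe sets (8.49% and 9.06%). Cyp1b1, which hydroxylates estrogens, was at 1.58 (adjusted p = 0.0426), with 1 of the 9 rats below all wild-type values. In lesion 05 it stood at 10.85, against at most 8.67 in the other lesions, and without that lesion the difference was 1.44 (adjusted p = 0.0482). Its call was lost in 10 of the 14 versions that left out 1 rat (adjusted p from 0.0137 to 0.0878). Cyp7b1, which hydroxylates oxysterols and other steroids, fell by 0.68 log2 units (adjusted p = 0.00352).

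Regulators of the route were listed as 18 genes, of which 16 were measured. Of these 5 were called higher and 1 lower, beside 8.49% and 9.06% of all probe sets. Nr5a1, the gene of SF-1, was named only through the study's list and so was chosen for its rise. Its mean ± SD was 6.66 ± 0.30 over 5 wild-type pituitaries and 8.01 ± 0.29 over 9 mutant rats. Nr0b2 and Nr0b1, which encode the corepressors SHP and DAX-1, had log2 fold changes of 2.65 (adjusted p = 0.000324) and 1.56 (adjusted p = 0.0055). Pde8b, a phosphodiesterase that limits cAMP signalling, was at 1.73 (adjusted p = 8.01e-05) and Cited2, a transcriptional coactivator, at 1.05 (adjusted p = 0.000278). For Nr0b2, Pde8b and Cited2 all 9 rat means lay above all wild-type values, as they did at 2.66% of all probe sets.

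Of 9 steroid receptor genes 8 were measured, with 1 called higher and 2 lower, beside 8.49% and 9.06% of all probe sets. A further probe set named Pgrmc1, with a lower mean over all arrays, was not used. Pgrmc1, which encodes a membrane-associated progesterone binding protein, rose (1.11, adjusted p = 0.00886). Nr3c2, the gene of the mineralocorticoid receptor, fell by 1.31 log2 units (adjusted p = 0.0058), and Gper1, the gene of a membrane estrogen receptor, fell by 0.45 (adjusted p = 0.0183, lost in 1 of 14 versions without 1 rat).

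Lesions from the same rat were compared next, with no test. For Scarb1, Cyp11b2 and Akr1c14 they resembled each other. The pooled SD between lesions of 1 rat was 0.36, 0.34 and 0.40, against an SD between rat means of 1.02, 1.32 and 1.02. The lesions of rat 1, for example, were at 10.49 and 10.20 for Cyp11b2, and those of rat 5 at 12.40, 12.13 and 11.99 for Scarb1. By the same SDs, Star (0.88 and 0.65), Fdx1 (0.45 and 0.35) and Cyp11b1 (0.67 and 0.58) differed more within rats than between them. Cyp17a1 differed slightly less within rats (0.13 and 0.15). Cyp11a1 differed within rats almost as much as between them, with SDs of 1.36 and 1.65. Its sister lesions in rat 2 were at 6.22 and 8.77, and those in rat 3 at 12.85, 9.09 and 9.31. Without lesion 05 the SD within rats was 0.82 for Cyp11a1 and 0.43 for Cyp11b1. That of Star went from 0.88 to 0.22 and that of Fdx1 from 0.45 to 0.22. Hence much of the spread of Star, Fdx1, Cyp11b1 and Cyp11a1 within rats came from this 1 lesion. For Cyp11a1 the lesions of rat 2 added to it.

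Lesion 05 had the top value of all arrays for Cyp11a1 (12.85, against at most 10.61 in the other 15 lesions), Star (9.62, at most 6.96) and Fdx1 (9.02, at most 8.60). It lay within the range of the other lesions for the rest. Scarb1 was at 12.18, and Cyp11b2, at 9.16, lay just above its sister lesions at 8.60 and 9.10. Cyp11b1 was at 4.49, below its sister lesions at 5.90 and 6.62, and Akr1c14 at 6.04, below theirs of 6.99 and 6.89. Cyp17a1 was at 4.66, within the range of the other lesions (4.35 to 5.07), and Hsd3b2, at 5.24, lay within theirs (5.18 to 5.73). Among cholesterol supply genes, Dbi (9.84, at most 7.82 in the other lesions) and Tspo (8.17, at most 7.29) lay above every other lesion. So did Abca1 (10.66, at most 10.36) and Stard3 (8.64, at most 8.60). Npc1 (7.44, at least 7.80) lay below, and the rest of that list within. Of the listed steroid-forming enzymes, Hsd17b3 (5.91, at most 4.94) and Hsd17b7 (7.84, at most 7.06) lay above and the rest within. These were chosen after their values were seen.

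Markers of steroid-forming organs were set beside this lesion. Mrap, which encodes the accessory protein of the ACTH receptor, was at 8.53, against 5.51 to 6.49 in the other lesions. Lhcgr, the gene of the LH receptor, was at 5.35, against 3.29 to 4.34. Of the other gonad markers, Fshr (4.49) lay just above the highest other lesion (4.44). Insl3 (6.74), Amh (5.60) and Inha (6.73) lay within the ranges of the other lesions. The receptor gene Mc2r (5.26) and Cyp21a1 (4.62) lay within the ranges of the other lesions, and Akr1b7 (5.12) at their upper end of 5.11. Across all adenomas none of the 4 adrenal cortex markers and none of the 5 gonad markers was called by limma. Ranked by the gap between lesion 05 and the highest other lesion, Star was number 12 and Cyp11a1 number 22 of 15310 probe sets. The first ranks went to Cd52, a surface antigen gene of leukocytes (9.72, against at most 5.23), and the chemokine gene Cxcl13 (9.55, at most 5.62). Gnat2, Akr1b8, the interferon-induced gene Cxcl10 (9.36, at most 5.96), Oit3 and Svs5 followed at ranks 3 to 7. Of the macrophage markers, Ptprc (8.41), Aif1 (7.42) and C1qa (8.52) lay above every other lesion. Mrc1 (6.31) lay below every other lesion, and the rest lay within their range. Cd52, Cxcl13 and Cxcl10, like Mrap and Lhcgr, were singled out after their values were seen. The part of other cells in the Star and Cyp11a1 values of this lesion was not tested.

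**Figure D3:**
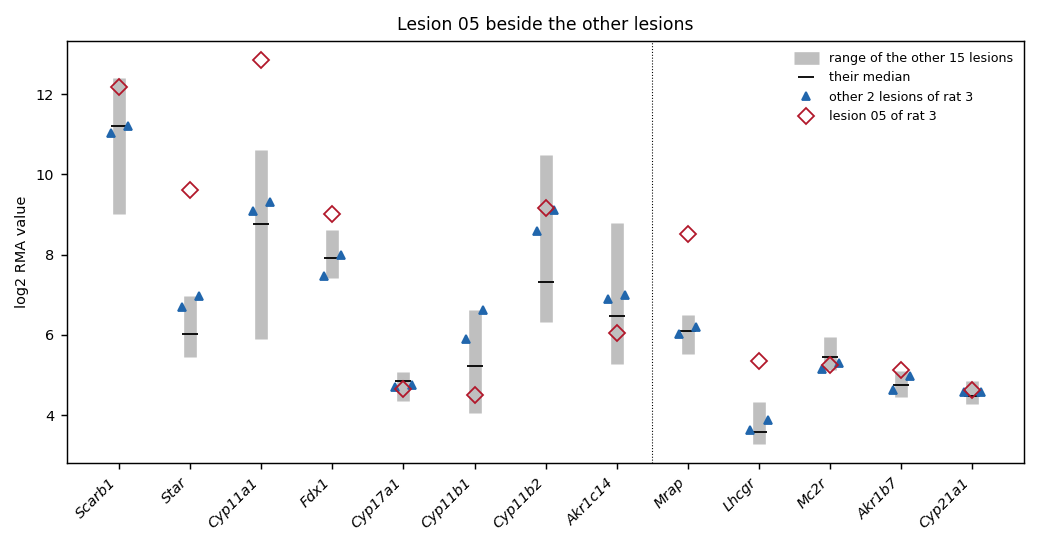
Log2 RMA values (y axis) of lesion 05 (open diamonds), the other 2 lesions of rat 3 (triangles) and the range and median of the other 15 lesions (grey bars and black marks) for the 8 measured genes and, right of the dotted line, 5 markers of adrenal cortex and gonad. Lesion 05 lies above the range for Star, Cyp11a1, Fdx1, Mrap and Lhcgr, slightly above it for Akr1b7, and inside it for the rest.

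Whether the genes moved together across adenomas was asked with the 9 rat means. The 8 genes gave 28 pairs, of which 18 had a Pearson's r above 0 and 10 below, with a median of 0.11. None passed after adjustment over the 28 pairs (lowest adjusted p = 0.376 in exact permutation tests), and 3 had an unadjusted exact p under 0.05. By Spearman's rho 0 passed and 2 did so unadjusted. Rats 1 to 5 bore prefix 08 and the others 09, and a prefix held too few rats (5 and 4) for a correlation of its own, so r was also taken after subtracting each prefix's mean.

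Scarb1 and Fdx1 had an r of 0.74 (two-sided exact p = 0.0260, adjusted 0.376) and a rho of 0.75 (exact p = 0.0255, adjusted 0.357). Their r was 0.60 without the 2 rats farthest from the median of Scarb1 and 0.52 with prefix means subtracted, and it no longer passed an unadjusted exact test in either case (p = 0.154 and 0.200). Scarb1 and Akr1c14 ran opposite to each other, with an r of -0.68 (exact p = 0.0377, adjusted 0.376) and a rho of -0.55 (exact p = 0.133, adjusted 0.590). Rat 8, lowest in Scarb1 (9.02), was highest in Akr1c14 (8.79), and rat 5, highest in Scarb1 (12.18), was lowest in Akr1c14 (5.43). Leaving out 1 rat at a time moved that r between -0.78 and -0.36, without the 2 farthest rats it was -0.49 (exact p = 0.268), and with prefix means subtracted -0.51 (permutation p = 0.202).

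Cyp11b1 and Cyp11b2 had an r of 0.67 (exact p = 0.0403, adjusted 0.376) and a rho of 0.80. It was 0.86 without the 2 farthest rats and 0.80 with prefix means subtracted. These are neighbouring paralogs, and binding of the transcript of one by the probes of the other was not tested. Cyp11a1 was not tightly tied to any other gene of the route. Its r was 0.48 with Star (exact p = 0.178, adjusted 0.690), 0.46 with Scarb1 (exact p = 0.210, adjusted 0.690) and 0.35 with Fdx1 (exact p = 0.345, adjusted 0.717). Without lesion 05 the r of Cyp11a1 and Star was 0.32. Star and Cyp11b1 went the other way when that lesion was left out, from 0.58 (exact p = 0.0683) to 0.78 (exact p = 0.0107). Both p-values are unadjusted. Without lesion 05, a version chosen after seeing the data, 4 of the 28 pairs had an exact p under 0.05, with no adjustment made.

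**Figure D4:**
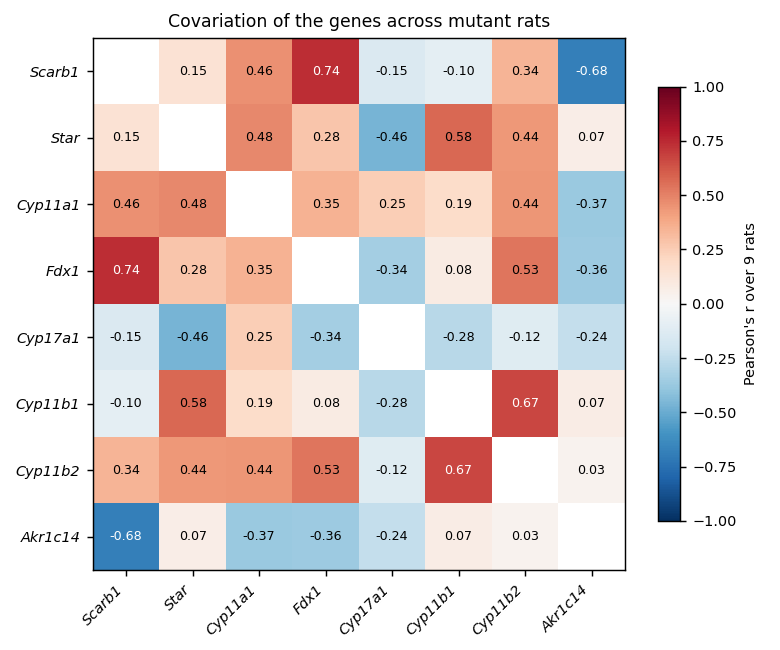
Pearson's r between the 8 measured genes over 9 rat means, with blue for negative and red for positive values and the gene order of the route on both axes. The strongest pairs are Scarb1 with Fdx1 (0.74), Scarb1 with Akr1c14 (-0.68) and Cyp11b1 with Cyp11b2 (0.67), and none passed after adjustment over the 28 pairs.

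The named probe sets most like Cyp11a1 and Scarb1 over the 9 rats are given as a description. For Cyp11a1 they were Krt9 (r = 0.93), Dbr1 (0.91), Pm20d2 (0.91), Acly (0.90) and Capns1 (0.90). Of these Pm20d2 (log2 fold change 0.85, adjusted p = 0.00143) and Acly, the gene of ATP citrate lyase (0.80, adjusted p = 0.000324), were themselves higher in adenomas. For Scarb1 they were Foxn3 and Nos1 (r = 0.97 each), Arrb1 (0.96), Zfp458 (0.96) and Asgr1 (0.95). Nos1, the gene of neuronal nitric oxide synthase, was at a log2 fold change of 4.32, and Arrb1, which encodes an arrestin that desensitises G-protein-coupled receptors, was also higher (adjusted p = 0.00196).

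For the measured genes, neither a difference of the adenoma effect between the sexes nor a slope with age passed the test. A sex difference shared by both groups was not tested. No measured gene passed the test of a sex difference in the adenoma effect, and none had an unadjusted p under 0.05 (0 of 8, adjusted p from 0.838 to 0.955 in limma), where the share called over all probe sets was 0%. The point estimates, male minus female, were -0.97 for Akr1c14 (standard error 0.79) and 0.71 for Scarb1 (standard error 0.69). All 3 male mutant rats bore prefix 08 and all mutant rats of prefix 09 were female, so sex and prefix were partly shared. With age the slopes per month over the 9 mutant rats were -0.28 for Cyp11a1 (standard error 0.26, adjusted p = 0.719) and 0.23 for Akr1c14 (standard error 0.16, adjusted p = 0.599). None of the 8 passed (0 at an unadjusted p under 0.05), and 0.00342% of all probe sets did. With 9 rats such tests leave wide intervals.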

How the data were processed

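Affymetrix Rat Gene 1.0 ST arrays were used for RNA of 16 lesions and 5 wild-type pituitaries. Per the labels and the study's methods, the authors made the deposited log2 values with the RMA method at gene level in Affymetrix Expression Console (background correction, sketch-quantile normalization and median polish). No source used here gives program versions. Quantile normalization sets the arrays' distributions alike, and differences of dim probe sets are understated. Precision is limited by the number of arrays.

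Of 29214 probe sets, 15310 carried 1 symbol in the platform annotation, 323 several and 13581 none. Fdxr, Nr5a1 and a second Cyp11b1 probe set were named only through the study's list of changed probe sets, whose fold changes were not used. The members, gene lists and tests were chosen with earlier results of these data known.

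Lesions were averaged per sample number, read as the animal (9 numbers, whereas the study's text counts more rats). Per probe set, limma 3.58.1 in R 4.3.3 compared 9 rats with 5, with 12 residual and 3.21 prior degrees of freedom, Benjamini-Hochberg adjustment over all probe sets and a threshold of 0.05. Sex was tested as an interaction and age as a slope. The p-values set the group difference against the spread between these samples and treat the rats as independent. Nothing says how rats of a group were related, so that independence is not known. Correlations over rat means used exact permutation tests over all 362880 orders, adjusted over 28 pairs, since 8 of 10 genes were measured. Scripts were tested on simulated data.

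Named beside the members were, per pathway list, up to 4 called genes by size, the enzymes that join the members (Fdxr, Hsd3b genes, Cyp21a1, Cyp11b3, Por), Nr5a1, Nr0b1, hormone genes, and the 5 probe sets most like Cyp11a1 and like Scarb1. Alternatives were other units of replication, blocks, covariates, filters, normalizations, thresholds and each rat left out. The version without lesion 05 was chosen after seeing the data.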

Additional observations from a re-analysis of the deposited data

Results flagged for a closer look

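Both results singled out here concern Star, and 16 group and gene combinations were examined by Dixon's test, which marks about 1 in 20 groups by chance. In wild-type pituitaries, sample 1 was at 5.52 on the log2 scale, apart from the other 4, with a gap of 0.73 of the group's range, although that whole range was only 0.30. In adenomas, the mean of rat 3 was at 7.76, with a gap of 0.61 of the range, and it rests on lesion 05.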

How the results depend on the processing

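The count of up-regulated members, 5 of 8, was 2 with prefix 08 alone, 3 with prefix 09 alone, 1 with adenomas of 7 or 8 months alone (2 rats) and 2 at an adjusted p under 0.01, where fewer samples or a stricter threshold enter by construction. Leaving out 1 rat at a time gave 4 to 6. The replicate number of the labels as a block gave 6, with Cyp11b2 added at a log2 fold change of 2.90. These numbers name different rats in each group. Only 5 numbers occur in both groups, so this contrast rests on the lesions of those numbers, lesion 05 among them. Deviations of same-numbered samples had correlations of -0.053 to 0.20 over 5 numbers, and 3 of 5 wild-type samples were closest to their own number.

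Cyp11a1 lost its call with prefix 09 alone and with adenomas of 7 or 8 months alone (3.77, adjusted p = 0.0563), Fdx1 and Cyp11b1 with either prefix or the younger adenomas, and Akr1c14 with prefix 08 or the younger adenomas (0.89, adjusted p = 0.230). Cyp17a1, at 0.0098, turned to -0.0086 with the rat as a random block, -0.025 both with the methods' t-test and in limma with each lesion as a sample of its own, -0.016 with the replicate block, -0.032 with prefix 09 alone and to between -0.049 and -0.0019 in 5 of the 14 versions that left out a rat, the other 9 running up to 0.090. In place of the main Cyp11b1 probe set the other gave -0.80. Star, Cyp11b1, Cyp17a1 and Akr1c14 fell under the filter on dim probe sets, which gave no value for them. Of pairs of genes, 1 passed when all 16 lesions were taken as samples (Scarb1 with Akr1c14, r = -0.72, adjusted p = 0.0498), against 0 over rat means. Lesions of 1 rat are not independent. Over all settings 186 gene values kept direction and call, 10 gained a call, 14 lost it and 11 reversed. The values carry no detection calls, so a dim gene cannot be called absent.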
